A study of Mus musculus with 16 samples.

Results

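The vascular endothelial growth factor (VEGF) ligands, receptors and neuropilins were described as 8 genes, chosen by symbol from the gene count table of cultured mouse lung endothelial cells (MLECs). They were the receptors Kdr (VEGFR2), Flt1 (VEGFR1) and Flt4 (VEGFR3), the co-receptors Nrp1 and Nrp2, and the ligands Vegfa, Vegfc and Pgf (placental growth factor). All 8 of 8 were among the 15693 genes tested, of 55414 genes listed.

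MLECs came from 4 independent isolations of Eng fl/fl:Rosa26-CRE:Immorto mice, and each isolation gave 1 library to each of 4 groups, 16 libraries in all. Ctrl cells had received vehicle and KO cells 4-OH-tamoxifen, which activates the tamoxifen-dependent Cre recombinase and deletes Eng, the gene of the BMP co-receptor endoglin. Cells of every group therefore started with the floxed Eng alleles, which were the target of deletion in KO cells. All groups carried the Cre driven from the ubiquitous Rosa26 locus and the temperature-sensitive large T antigen of the Immorto strain. Serum-starved Ctrl cells were given PBS or sENG(M):BMP9, which is BMP9 bound to monomeric soluble endoglin, and KO cells were given PBS or pro:BMP9, which is BMP9 with its prodomain. Both BMP9 forms were applied for 90 min, at 0.2 ng/ml counted as growth factor domain. Per the paper's methods, soluble endoglin was in large excess in the sENG(M):BMP9 treatment, and the control was PBS. The loss of Eng cannot be told apart from tamoxifen exposure, nor, with ligand, from the form of BMP9 and the excess soluble endoglin. In Ctrl cells the effect of BMP9 cannot be told apart from that of the excess soluble endoglin. The age of the mice was not given in the sources used here.

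VEGF-A binds the receptor tyrosine kinases VEGFR2, which carries most of its mitogenic and permeability signal in blood vessel endothelium, and VEGFR1, which binds VEGF-A tightly but signals weakly and is also made as a soluble decoy. Placental growth factor binds VEGFR1 and not VEGFR2, whereas VEGF-C acts mainly through VEGFR3, the receptor of lymphatic growth. Neuropilins lack a kinase and present VEGF and class 3 semaphorins to their partner receptors. The counts were summed per gene, so that soluble and membrane forms of Flt1, Kdr or Nrp1, and the splice forms of Vegfa, were not separated.

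In the GRCm39 coordinates of the deposited table, the receptor genes lie at chr5:76093487-76139118 (Kdr, minus strand), chr5:147498414-147662821 (Flt1, minus strand) and chr11:49500090-49543566 (Flt4, plus strand). The canonical GENCODE transcript of each receptor has 30 exons. Nrp1 lies at chr8:129085085-129229844 and Nrp2 at chr1:62742444-62857854, both on the plus strand and both with 17 exons. The ligand genes, each with 7 exons, lie at chr17:46327919-46343295 (Vegfa, minus strand), chr8:54530641-54640131 (Vegfc, plus strand) and chr12:85213409-85224564 (Pgf, minus strand). Of these genes, 7 overlap a noncoding gene on the opposite strand, with Pgf as the exception, and the strand setting used in counting was not given in the sources used here. Nrp1 also overlaps the microRNA gene Mir1903, and Nrp2 the unclassified transcript Gm37121, on its own strand, so a small part of their counts is uncertain.

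The 250 bases before the canonical start sites of Kdr, Vegfa and Pgf are shown because these 3 genes differed between ligand and PBS. They were read from GRCm39 on the strand of the gene. Capitals mark 3 motifs found on either strand. The first is CAGAC, the SMAD box, which on the other strand reads GTCTG. The others are cores of the hypoxia response element, namely ACGTG, whose other strand reads CACGT, and GCGTG, whose other strand reads CACGC.
Kdr, chr5:76139119-76139368, minus strand: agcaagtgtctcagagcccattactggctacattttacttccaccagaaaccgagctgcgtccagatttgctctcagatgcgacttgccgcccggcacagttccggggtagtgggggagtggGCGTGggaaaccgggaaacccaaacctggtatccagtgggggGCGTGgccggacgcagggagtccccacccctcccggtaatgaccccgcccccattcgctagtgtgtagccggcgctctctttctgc
Vegfa, chr17:46343310-46343559, minus strand: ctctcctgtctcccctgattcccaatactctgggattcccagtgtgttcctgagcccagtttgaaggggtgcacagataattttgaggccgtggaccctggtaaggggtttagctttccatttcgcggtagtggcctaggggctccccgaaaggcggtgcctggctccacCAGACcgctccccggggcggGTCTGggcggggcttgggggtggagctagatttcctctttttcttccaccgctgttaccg
Pgf, chr12:85224565-85224814, minus strand: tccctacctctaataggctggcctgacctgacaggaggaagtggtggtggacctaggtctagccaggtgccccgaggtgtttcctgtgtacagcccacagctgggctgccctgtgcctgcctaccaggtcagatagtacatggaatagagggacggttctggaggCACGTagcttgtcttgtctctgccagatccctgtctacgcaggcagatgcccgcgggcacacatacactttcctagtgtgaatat
The Kdr window held 2 matches to GCGTG. The Vegfa window held 2 SMAD box matches, 1 on each strand, and no hypoxia response core. The Pgf window held 1 ACGTG match, read as CACGT. Windows of the genes that did not pass with ligand held such matches too. Flt4 and Nrp1 had 1 SMAD box each, and Nrp1 also 1 ACGTG. Flt1 and Nrp1 had 1 GCGTG each, and Nrp2 and Vegfc 2 each. Among 21770 windows of the same length before protein-coding start sites, 41.3% held a SMAD box, 31.2% the core GCGTG and 17% the core ACGTG. The GC-rich palindrome GGCGCC was found in 9.3% of these windows and in none of the 8 windows of the genes described here. Such matches are letters in a window and not binding sites.

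Between 14869115 and 17242117 counts were assigned to genes per library (median 15996523.5). Eng, the targeted gene, fell by 3.15 on the log2 scale in KO against Ctrl cells in PBS (edgeR quasi-likelihood test, adjusted p = 2.69e-12), from 460.1 ± 93.6 to 51.2 ± 8.37 CPM (counts per 1000000 counts, mean ± SD, n = 4), and was lower in 4 of 4 isolations. With ligand the difference was -2.40 (adjusted p = 1.04e-10), from 641.2 ± 104.4 to 120.5 ± 7.22 CPM. Eng rose with ligand in both (log2 fold change 0.48 in Ctrl and 1.23 in KO cells, adjusted p = 0.00163 and 2.80e-07). Levels below are CPM after TMM normalisation, where each library is scaled to the same effective size, and each adjusted p comes from edgeR, blocked by isolation and adjusted over all 15693 genes. The endothelial markers Pecam1 and Cdh5 were at 702.8 to 1947 and 1449 to 2790 CPM. Lyve1, a marker of lymphatic endothelium also found in some other endothelial cells, was at 3036 to 5712 CPM. The 7 epithelial markers summed to 5.10 to 82.4 CPM, with Krt19 at up to 79.5 CPM and Sftpc, the alveolar one, at 0 in all 16 libraries. The 6 leukocyte markers summed to 29.4 to 43.1 CPM, and the 12 mural cell and fibroblast markers summed to 103.7 to 827.9 CPM.

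Divided by the deposited gene length, Flt4 had the highest level of the 8 genes in 16 of 16 libraries. In Ctrl cells in PBS it was at 95.2 ± 53.9 CPM per kb (mean ± SD, n = 4), followed by Pgf at 43.2 ± 22.8, Nrp2 at 24.8 ± 6.09 and Flt1 at 16.4 ± 3.27 CPM per kb. Vegfa (9.90 ± 1.81 CPM per kb), Vegfc (9.60 ± 6.87), Kdr (9.10 ± 6.46) and Nrp1 (6.63 ± 1.10) came last. Neighbours in this part of the order were not separated beyond their spread, since Vegfa was above Vegfc, Vegfc above Kdr, and Kdr above Nrp1 in 2 of 4 Ctrl PBS libraries each. Pgf was above Nrp2 in 3 of 4 of these libraries, and the other steps of the order held in 4 of 4. In such bulk samples a lower level can come from fewer cells that express a gene or from less RNA per cell, and these cannot be told apart.

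**Figure D1:**
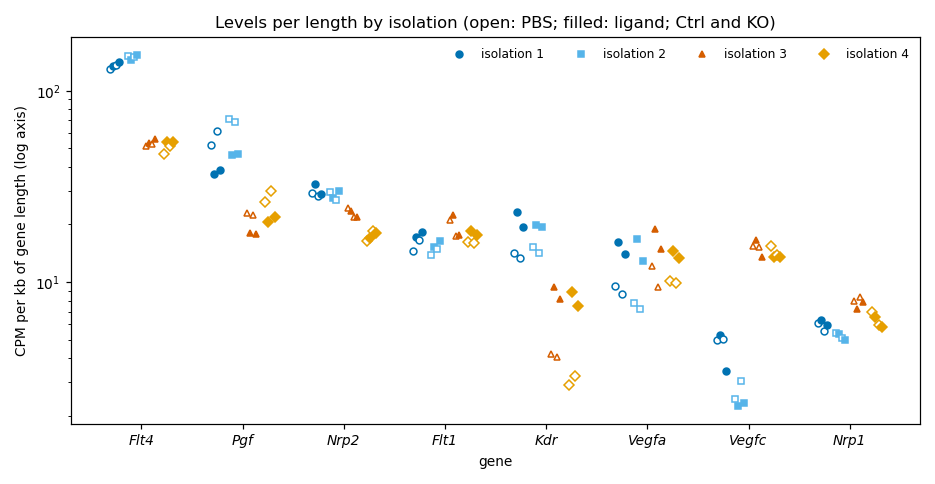
Levels of the 8 genes in each of the 16 libraries as CPM per kb of gene length on a log axis, with 1 colour and symbol per isolation, open symbols for PBS and filled symbols for ligand (Ctrl and KO libraries share symbols). Flt4 is the highest gene in every library, and Kdr, Flt4 and Pgf of isolations 1 and 2 lie above those of isolations 3 and 4, whereas Vegfc shows the opposite order.

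The comparison of sENG(M):BMP9 with PBS in Ctrl cells asked which genes responded to this complex, with its excess soluble endoglin, in cells with endoglin. Of the 8 genes, 2 rose (Kdr and Vegfa) and 1 fell (Pgf), while 9.69% of all tested genes passed the threshold of adjusted p under 0.05, 5.86% higher and 3.83% lower. In KO cells given pro:BMP9, Kdr and Vegfa rose and Pgf fell as well, against 5.59% of all tested genes, 3.68% higher and 1.92% lower. The median log2 fold change of the 8 genes was 0.03 in Ctrl and 0.05 in KO cells, beside -0.01 and 0.00 over all tested genes.

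Kdr, the main signalling receptor of VEGF-A, rose after ligand in every isolation. In Ctrl cells of isolations 1 to 4 its level was 128.1, 136.8, 37.7 and 26.2 CPM with PBS and 208.7, 179.5, 84.7 and 80.1 CPM with sENG(M):BMP9. In KO cells it was 120.4, 128.6, 36.5 and 29.0 CPM with PBS and 174.4, 175.4, 73.2 and 67.5 CPM with pro:BMP9. The groups overlapped, because isolations 3 and 4 with ligand stayed below isolations 1 and 2 with PBS. Within isolations the log2 fold change was 0.92 (SE 0.135) in Ctrl cells, with adjusted p = 1.03e-04, and 0.76 (SE 0.136) in KO cells, with adjusted p = 0.00119. The rise was 1.63-, 1.31-, 2.24- and 3.05-fold in isolations 1 to 4 of Ctrl cells and 1.45-, 1.36-, 2.0- and 2.32-fold in KO cells. In both, this ratio was larger in the isolations with the lower PBS level, whereas the rise in CPM was largest in isolation 1. Without the isolation block the spread between isolations entered the error, and the Kdr call was lost in both comparisons (adjusted p = 1.00). Without isolation 4 the value in Ctrl cells fell to its lowest, 0.73, and remained called.

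Flt1, the receptor that also gives the soluble decoy, was at 195.5, 187.8, 284.9 and 218.2 CPM in Ctrl cells with PBS and at 231.9, 206.7, 301.9 and 250.9 CPM with sENG(M):BMP9. In KO cells it was at 223.5, 200.7, 236.4 and 216.3 CPM with PBS and 245.2, 221.0, 239.1 and 237.2 CPM with pro:BMP9. Its level was higher with ligand in 4 of 4 isolations in both, but the log2 fold changes of 0.16 (SE 0.0671, adjusted p = 0.161) and 0.11 (SE 0.0673, adjusted p = 0.553) did not pass. In Ctrl cells Flt1 passed under 4 of 11 alternatives, among them the fit without isolation 3 (lowest adjusted p over the 11 alternatives 0.00275, highest 1.00), and in KO cells under none of 11.

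Flt4, the VEGF-C receptor, was almost level across the groups within an isolation. In Ctrl cells it was at 1069, 1255, 424.9 and 386.4 CPM with PBS and 1107, 1195, 436.2 and 445.9 CPM with sENG(M):BMP9, and in KO cells at 1119, 1230, 432.2 and 424.4 CPM with PBS and 1160, 1269, 461.8 and 445.0 CPM with pro:BMP9. The log2 differences with ligand were 0.05 (95% interval -0.02 to 0.13) and 0.07 (-0.01 to 0.14), with adjusted p = 0.468 and 0.466.

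The neuropilins did not pass in either ligand comparison. Nrp1, a co-receptor of VEGFR2, was at 53.3 to 78.0 CPM in Ctrl cells with PBS, 52.5 to 70.9 CPM with sENG(M):BMP9, 50.1 to 81.8 CPM in KO cells with PBS and 48.7 to 76.8 CPM with pro:BMP9. Its log2 differences with ligand were -0.05 (95% interval -0.17 to 0.07) and -0.02 (-0.14 to 0.10). Nrp2, a co-receptor of VEGFR3, was at 194.7 to 347.8, 201.5 to 384.0, 218.0 to 334.1 and 213.9 to 352.1 CPM in the same 4 groups, with log2 differences of 0.01 (-0.10 to 0.12) and 0.04 (-0.07 to 0.15). The 4 groups of each neuropilin overlapped over nearly their whole ranges, and the intervals leave room for changes of up to 0.17 on the log2 scale.

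**Figure D2:**
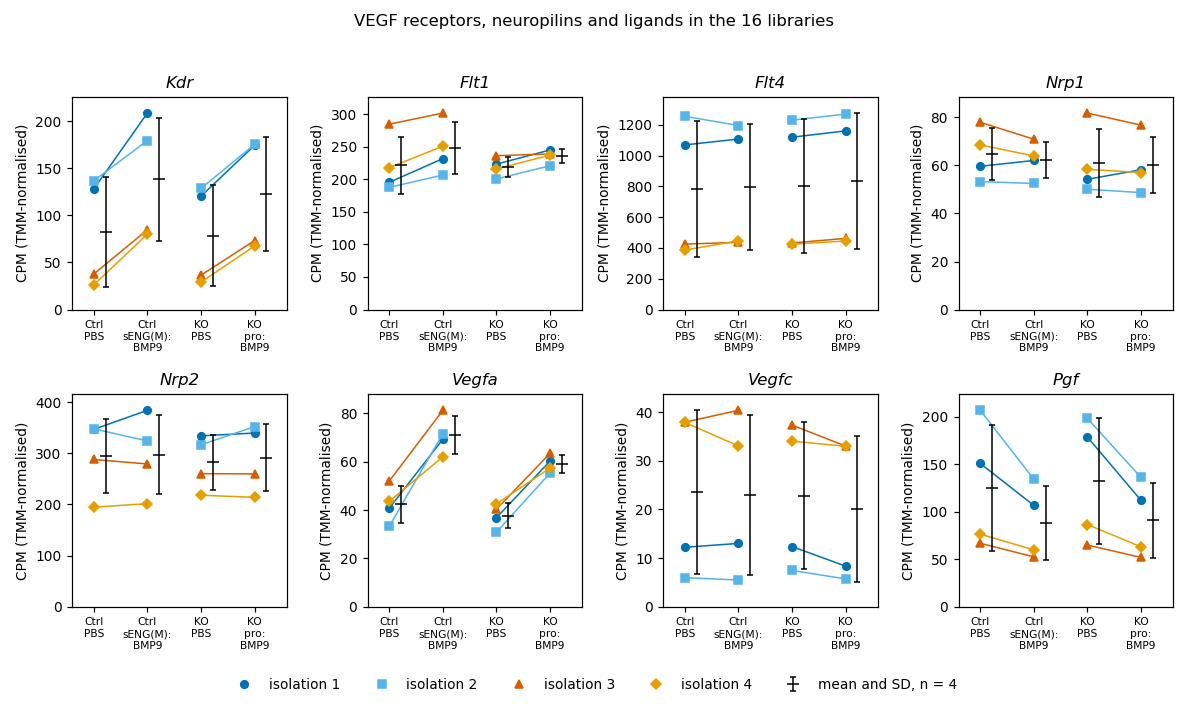
CPM of the 8 genes in the 16 libraries, each panel with its own axis from 0, with PBS and ligand libraries of 1 isolation joined by a line and the mean and SD of each group in black (n = 4). The lines of Kdr and Vegfa go up and those of Pgf go down in all 4 isolations of Ctrl and of KO cells, and for Kdr, Flt4, Vegfc and Pgf the isolations lie far apart.

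Vegfa, the main angiogenic ligand, rose after ligand in every isolation. In Ctrl cells it was at 40.8, 33.3, 52.0 and 43.6 CPM with PBS and 69.3, 71.6, 81.3 and 62.0 CPM with sENG(M):BMP9 in isolations 1 to 4. In KO cells it was at 36.9, 30.9, 40.3 and 42.6 CPM with PBS and 60.2, 55.3, 63.5 and 57.4 CPM with pro:BMP9. No ligand library of either genotype overlapped the PBS libraries of the same genotype. The share of all tested genes that separate in this way is not given here, so this only describes Vegfa. The log2 fold change was 0.75 (SE 0.0806, adjusted p = 2.50e-06) in Ctrl and 0.65 (SE 0.0825, adjusted p = 3.05e-05) in KO cells. It rose 1.42- to 2.15-fold in the single isolations of Ctrl cells and 1.35- to 1.79-fold in those of KO cells. Vegfa passed under 11 of 11 alternatives in both comparisons, with or without the block.

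Pgf, which binds VEGFR1, changed the other way. In Ctrl cells of isolations 1 to 4 it was at 151.0, 207.0, 66.9 and 76.4 CPM with PBS and 106.8, 134.4, 52.6 and 60.0 CPM with sENG(M):BMP9. In KO cells it was at 178.8, 198.4, 65.0 and 86.6 CPM with PBS and 112.1, 136.3, 52.0 and 63.2 CPM with pro:BMP9. Pgf fell in 4 of 4 isolations of each genotype while the groups overlapped between isolations. The log2 fold change was -0.46 (SE 0.0597, adjusted p = 2.14e-05) in Ctrl and -0.51 (SE 0.0597, adjusted p = 1.24e-05) in KO cells, with ratios of ligand to PBS level from 0.627 to 0.80 in single isolations. The call was lost without the isolation block in both (adjusted p = 1.00).

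Vegfc, the VEGFR3 ligand, was at 12.2, 5.98, 37.9 and 37.9 CPM in Ctrl cells with PBS and 13.0, 5.49, 40.4 and 33.0 CPM with sENG(M):BMP9, a log2 difference of -0.03 (SE 0.0910, adjusted p = 0.940). In KO cells it was at 12.4, 7.46, 37.3 and 34.0 CPM with PBS and 8.35, 5.73, 33.0 and 33.0 CPM with pro:BMP9. These KO values were lower with ligand in 4 of 4 isolations, with a log2 difference of -0.24 (SE 0.0932), but did not pass (adjusted p = 0.209). The remaining ligands of the family, read from a separate list, did not pass either. Vegfb, a VEGFR1 ligand, was at 32.1 ± 4.91 CPM in Ctrl PBS and 33.1 ± 4.75 CPM in Ctrl sENG(M):BMP9 libraries, and Vegfd, which like Vegfc binds VEGFR3, at 18.5 ± 11.0 and 17.1 ± 11.4 CPM (mean ± SD, n = 4), with adjusted p = 0.858 and 0.556. In KO cells their adjusted p with ligand was 0.847 and 0.977. Vegfb overlaps the protein-coding gene Trpt1 on the opposite strand.

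The balance of receptors and of ligands was given as ratios of levels per length, as a description with no test. Flt1 per Kdr was 1.02, 0.918, 5.05 and 5.58 in isolations 1 to 4 of Ctrl cells with PBS, and 0.743, 0.770, 2.38 and 2.09 with sENG(M):BMP9. In KO cells the same ratio was 1.24, 1.04, 4.33 and 4.98 with PBS, and 0.940, 0.842, 2.19 and 2.35 with pro:BMP9. Flt1 and Kdr were thus about level in isolations 1 and 2, whereas Flt1 exceeded Kdr in isolations 3 and 4 with or without ligand. Among the ligands, Pgf per Vegfa was 4.78 ± 3.31 in Ctrl cells without and 1.86 ± 0.818 with sENG(M):BMP9 (mean ± SD, n = 4 each). In KO cells the same ratio was 5.51 ± 3.40 without and 2.30 ± 1.10 with pro:BMP9. Flt4 per Kdr lay between 9.15 and 16.2 with PBS and between 5.65 and 7.93 with ligand over both genotypes, without overlap. As both members of Pgf per Vegfa were called and Flt4 of the last ratio was not, these ratios follow from the values of the single genes and add no separate evidence.

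KO and Ctrl cells were compared in PBS and with ligand. In PBS 0 of the 8 genes passed by edgeR and 0 by DESeq2, while 0.0191% of all tested genes did. Of the 8, 0 had an unadjusted p under 0.05, beside 1071 of all 15693 tested genes. The largest log2 difference in PBS was that of Vegfa, -0.17 (SE 0.0841, adjusted p = 0.751), with lower values in KO cells of 4 of 4 isolations. The PBS differences of Kdr (-0.04), Flt1 (-0.00), Flt4 (0.05), Nrp1 (-0.09), Nrp2 (-0.04), Vegfc (-0.01) and Pgf (0.08) were smaller on the log2 scale, and the 95% intervals of the 8 genes lay within -0.34 and 0.25.

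With ligand, 0 of the 8 genes passed by edgeR and 0 by DESeq2, against 0.255% of all tested genes. Of the 8, 2 had an unadjusted p under 0.05, beside 1454 of all 15693 tested genes. Vegfa was lower in KO cells of 4 of 4 isolations, by 0.20, 0.37, 0.36 and 0.11 in single log2 differences, and its log2 fold change was -0.26 (SE 0.0787, unadjusted p = 0.00355, adjusted p = 0.173). The groups overlapped, as 62.0 CPM in isolation 4 of Ctrl cells lay below 63.5 CPM in isolation 3 of KO cells. Vegfa passed under 2 of 11 alternatives, one without the filter on low counts and one with quantile normalisation, ComBat and DESeq2 (adjusted p from 7.22e-04 to 1.00 over the alternatives). Vegfc had a log2 difference of -0.22 (unadjusted p = 0.0313, adjusted p = 0.454), lower in 3 of 4 isolations. Kdr was lower in KO cells with ligand in 4 of 4 isolations, with -0.20 (SE 0.132, adjusted p = 0.733), and passed without the filter on low counts alone (adjusted p = 0.00906). The fibroblast marker Dcn was lower in KO cells in PBS (-0.61, adjusted p = 0.0160) and with ligand (-0.61, adjusted p = 0.00835), and the mural cell marker Pdgfrb was lower with ligand (-0.29, adjusted p = 0.0289). Of the 12 mural cell and fibroblast markers, 1 passed in PBS and 2 with ligand, their summed level lay between 111.9 and 818.1 CPM in Ctrl PBS and 108.6 and 726.0 CPM in KO PBS libraries, and between 119.0 and 827.9 CPM in Ctrl and 103.7 and 725.1 CPM in KO libraries with ligand. Of the 12 endothelial and 7 lymphatic markers, 0 passed by edgeR and 0 by DESeq2 in either comparison. At an unadjusted p under 0.05 there were 8 endothelial, 4 lymphatic and 6 mural cell and fibroblast markers in PBS. With ligand there were 3, 4 and 8. Over all 15693 tested genes, 1071 in PBS and 1454 with ligand had such a p. The median log2 difference in PBS and with ligand was 0.08 and 0.05 for the endothelial markers, with 11 and 10 of 12 higher in KO cells. It was -0.14 and 0.11 for the lymphatic ones. For the mural cell and fibroblast markers it was -0.23 and -0.30, with 1 of 12 higher in KO cells in each. The part of these marker lists in the values of the 8 genes was not tested. The Dcn call was lost without isolation 1, 3 or 4 in PBS and without isolation 1 with ligand, and the Pdgfrb call without isolation 2, 3 or 4.

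The ligand responses of KO and Ctrl cells were compared directly as a difference, KO minus Ctrl. Of the 8 genes, 0 passed by edgeR and 0 by DESeq2, as 0% of all tested genes did by edgeR, and 0 of the 8 had an unadjusted p under 0.05, beside 565 of all tested genes. On the log2 scale the difference was -0.15 for Kdr (95% interval -0.56 to 0.25), -0.10 for Vegfa (-0.34 to 0.14), -0.04 for Pgf (-0.22 to 0.13) and -0.21 for Vegfc (-0.48 to 0.06). These intervals allow a Kdr response in KO cells that is smaller by up to 0.56 or larger by up to 0.25 on the log2 scale, so equal responses were not shown.

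**Figure D3:**
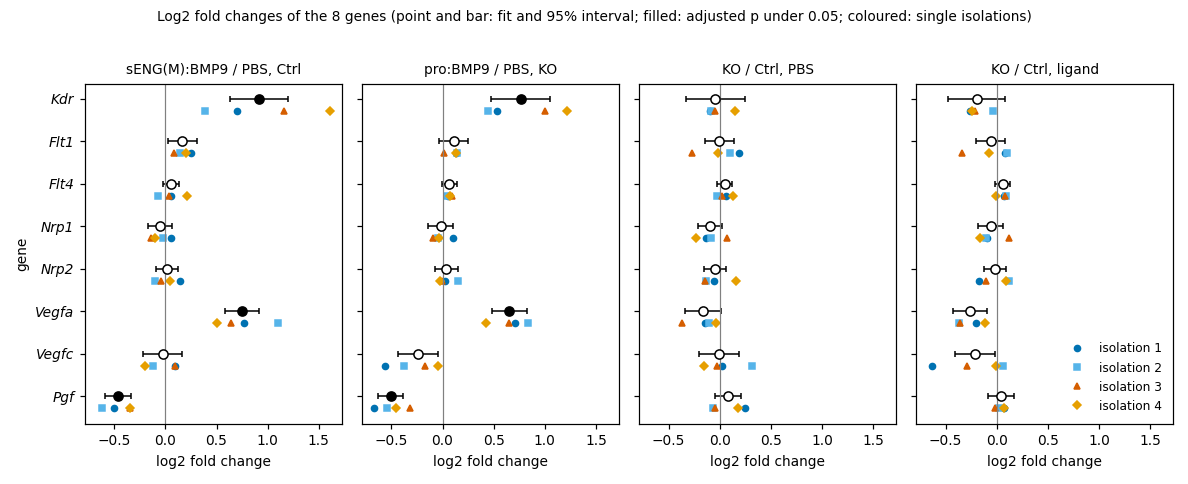
Log2 fold changes of the 8 genes in the 4 comparisons, with the fitted value and its 95% interval in black (filled where adjusted p was under 0.05) and the single isolations below it in colour. Kdr and Vegfa lie right of 0 and Pgf left of 0 in both ligand comparisons, the Kdr points of isolations 3 and 4 lie farther right than those of isolations 1 and 2, and no gene is filled in the 2 comparisons of KO with Ctrl cells.

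For most of the 8 genes the isolation set the level more than ligand or genotype did. The isolation took 99.4% of the sum of squares of log2 CPM for Flt4, 97.7% for Vegfc, 95.1% for Nrp2, 88.0% for Nrp1, 85.9% for Pgf, 73.9% for Kdr and 57.5% for Flt1. For Vegfa it took 9.53%, and ligand took 76.2%. Ligand took 21.3% for Kdr, 14.8% for Flt1 and 12.6% for Pgf, and under 1% for the other 4 genes. Genotype took at most 6.88%, that of Vegfa.

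The isolations split the same way for several genes. Mean levels over the 4 libraries of isolations 1 to 4 were 1114, 1237, 438.8 and 425.4 CPM for Flt4, 157.9, 155.1, 58.0 and 50.7 CPM for Kdr, and 137.2, 169.0, 59.1 and 71.5 CPM for Pgf. Nrp2 went in the same direction, with 351.2, 335.1, 271.7 and 207.0 CPM. Vegfc went the opposite way, with 11.5, 6.16, 37.2 and 34.5 CPM, a 6.03-fold range. Flt1 (204.0 to 265.6 CPM), Nrp1 (51.2 to 76.9 CPM) and Vegfa (47.8 to 59.3 CPM) differed less between isolations, and each was highest in isolation 3.

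Markers of other endothelial and mural cells also differed between these isolations. Prox1, the transcription factor that defines lymphatic endothelium, was at 48.6, 57.1, 15.2 and 6.59 CPM in isolations 1 to 4, in the same direction as Flt4. Lyve1 was at 4168, 5383, 3108 and 4303 CPM and did not split this way, as isolation 4 lay above isolation 1. The 7 lymphatic markers summed to 4337 to 4992, 5520 to 6172, 3165 to 3321 and 4077 to 4520 CPM, with none of them at 0 in all libraries. Lyve1, with a mean of 4241 CPM over all libraries, made up most of this sum, which overlapped between isolations 1 and 4. The 12 mural cell and fibroblast markers summed to 611.1 to 827.3, 103.7 to 119.0, 725.1 to 827.9 and 418.9 to 646.6 CPM, lowest in isolation 2. Pdgfrb, a single gene of this list, was at 45.4, 24.6, 94.3 and 60.9 CPM, higher in isolations 3 and 4. The sum of the 12 did not split this way, as it reached 827.3 CPM in isolation 1 and 646.6 CPM in isolation 4. The 12 endothelial markers summed to 6041 to 6863, 7977 to 8090, 3646 to 3918 and 5543 to 5886 CPM, and the 7 epithelial markers to 61.1 to 82.4, 5.10 to 7.49, 58.7 to 70.3 and 12.3 to 17.5 CPM. No test of these differences between isolations was made, and the part of the marker genes in them was not tested.

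Other genes of the pathway were read from lists, and their counts stand beside the shares of all tested genes given above for each comparison. Of 45 tested genes of VEGF receptor signal transduction (Sh2d2a was too low to test), 8 rose and 1 fell in Ctrl cells, and 6 rose and 1 fell in KO cells, with 7 called in both. Shb, an adaptor that binds VEGFR2, rose from 23.1 ± 2.98 to 35.4 ± 3.50 CPM in Ctrl (adjusted p = 6.92e-06) and from 22.4 ± 1.68 to 30.4 ± 4.05 CPM in KO cells (adjusted p = 5.70e-04). Nfatc1, a calcium-dependent transcription factor, rose by 0.58 and 0.54 on the log2 scale, and Vav2, a guanine nucleotide exchange factor, by 0.37 and 0.26. Prkd2, a protein kinase D that acts downstream of VEGFR2, fell by 0.58 and by 0.44 (adjusted p = 1.71e-07 and 8.58e-06). In KO cells the call of Nfatc1 was lost without isolation 1 or 2, and that of Vav2 without isolation 1, 2 or 4. The median log2 fold change of this list was 0.05 in both comparisons.

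Of 22 genes that regulate VEGF receptors, 4 rose and 1 fell in Ctrl cells, and 2 rose and 0 fell in KO cells. Ephb4, the receptor of ephrin-B2 that marks veins and modulates VEGF receptor traffic, rose from 119.1 ± 36.9 to 202.7 ± 63.2 CPM in Ctrl and from 118.7 ± 34.0 to 182.4 ± 54.7 CPM in KO cells, by 0.76 and 0.61 on the log2 scale (adjusted p = 4.52e-09 and 1.44e-07). The integrin subunit gene Itgav rose by 0.36 and 0.34. In Ctrl cells Thbs1, the angiogenesis inhibitor thrombospondin-1, rose by 0.22 (adjusted p = 0.0396), a call lost without isolation 1 or 4, and Dab2, an endocytic adaptor, fell by 0.25 (adjusted p = 1.91e-04). In KO cells their log2 differences were 0.08 (adjusted p = 0.708) and -0.12 (adjusted p = 0.10). The list had medians of 0.01 in Ctrl and 0.03 in KO cells.

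Of 13 neuropilin partners, 1 rose and 1 fell in Ctrl cells, and 1 rose in KO cells. Plxnd1, a semaphorin receptor of endothelium, rose by 0.18 (adjusted p = 0.00365) and 0.14 (adjusted p = 0.0406, a call lost without isolation 1, 2 or 3). The gene that fell in Ctrl cells was Sema3a, a neuropilin ligand, by 0.17 (adjusted p = 0.0147) and in 3 of 4 isolations. It was named after its value was seen, because the count is small.

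Of 23 genes known to be induced by VEGF in endothelial cells, 5 rose and 7 fell in Ctrl cells and 5 rose and 7 fell in KO cells, with 10 called in both. F3, the gene of tissue factor, rose from 7.86 ± 2.68 to 15.6 ± 4.57 CPM in Ctrl and from 7.77 ± 2.88 to 15.5 ± 6.82 CPM in KO cells, by 1.00 and 0.96 on the log2 scale. Egr2 (0.79 and 0.63), Pdgfb (0.49 and 0.32) and Hbegf (0.47 and 0.49), an immediate early transcription factor and a pair of secreted growth factors, rose as well. Adamts1, a secreted metalloprotease, fell from 314.2 ± 98.0 to 173.2 ± 62.4 CPM and from 322.8 ± 99.5 to 196.9 ± 68.5 CPM, by 0.88 and by 0.73. The Notch ligand gene Dll4 fell by 0.68 and by 0.65, and the immediate early gene Egr1 fell by 0.59 and by 0.44. Cxcr4, a chemokine receptor, fell in KO cells by 0.72 (adjusted p = 0.0282), a call lost without isolation 2, 3 or 4, and was at -0.29 in Ctrl cells (adjusted p = 0.445). In KO cells the Egr2 call was lost without any one of the 4 isolations, that of Egr1 without isolation 1 or 4 and that of Pdgfb without isolation 3, and in Ctrl cells that of Egr2 without isolation 3. The median log2 fold change of the list was -0.01 in Ctrl and -0.05 in KO cells, between the 5 genes that rose and the 7 that fell.

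Vegfa is also a target of hypoxia-inducible factors. Of 19 other targets of these factors, 4 rose and 3 fell in Ctrl cells, and 3 rose and 3 fell in KO cells, with 6 called in both. The repressor gene Bhlhe40 rose by 0.77 and 0.85 on the log2 scale, and Ddit4, an inhibitor of mTOR signalling, by 0.59 and 0.46. Adm, the gene of the vasodilator adrenomedullin, fell from 110.2 ± 48.9 to 64.6 ± 25.8 CPM and from 121.3 ± 52.2 to 76.7 ± 31.1 CPM, by 0.75 and by 0.65. Ankrd37 fell by 0.63 and by 0.76, and Ndrg1 by 0.28 and by 0.27, and the Ankrd37 call in KO cells was lost without isolation 2. Of 10 genes of the factors and their regulators, Epas1 (HIF-2α) was the 1 that rose in Ctrl cells, by 0.13, and in KO cells Epas1 rose by 0.13 and Vhl, the ubiquitin ligase subunit that marks the factors for degradation, fell by 0.30. The Epas1 calls, with adjusted p = 0.0412 and 0.0495, were lost without any one of the 4 isolations, and the Vhl call without isolation 1, 2 or 3. Without the isolation block, 49 of the 66 values of genes other than the 8 that are given here lost their call. The 66 include values with no call to lose, such as those of Vegfb and Vegfd.

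**Figure D4:**
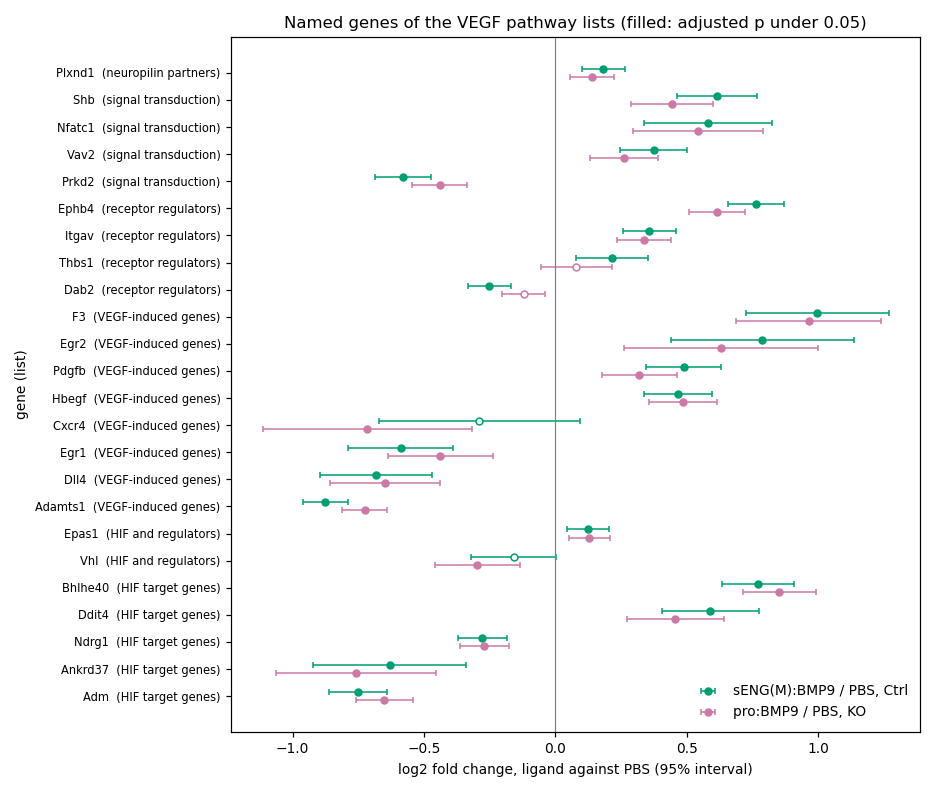
Log2 fold changes with 95% intervals of the named genes of the VEGF pathway lists for sENG(M):BMP9 against PBS in Ctrl cells (green) and pro:BMP9 against PBS in KO cells (pink), filled where adjusted p was under 0.05. VEGF-induced genes and targets of hypoxia-inducible factors lie on both sides of 0, with F3 at 1.00 and Adamts1 at -0.88 in Ctrl cells as the farthest Ctrl points on each side.

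Between KO and Ctrl cells, 0 genes of the signalling, regulator, neuropilin partner and VEGF-induced lists passed by edgeR in PBS and 0 with ligand. At an unadjusted p under 0.05 there were 6, 4, 1 and 2 such genes in PBS and 5, 3, 1 and 9 with ligand. Over all tested genes there were 1071 and 1454. DESeq2 called 3 genes, of the VEGF-induced list with ligand. Of 19 targets of hypoxia-inducible factors, 0 passed by edgeR in PBS and 1 with ligand, where DESeq2 called 2. The unadjusted p was under 0.05 for 5 and 10 of them. Their median log2 difference was -0.05 and -0.12, with 4 and 3 of 19 higher in KO cells. Aldoc, a glycolytic aldolase and a target of hypoxia-inducible factors, was at 2.91 ± 0.984 CPM in Ctrl and 1.32 ± 0.573 CPM in KO cells with ligand, a log2 fold change of -1.16 (adjusted p = 0.0245), a call lost without isolation 1, 2 or 3.

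The genes most like each of the 8 in pattern were taken by the Pearson correlation of log2 CPM over the 16 libraries after the mean of each isolation had been subtracted, among 10996 genes with a mean of at least 5 CPM. These libraries share isolations and ligand, and the values are descriptions. For Kdr they were Dlc1 (r = 0.982), Pxdc1 (0.977) and Creb3l2 (0.975), for Vegfa Rufy3 (0.985), Vasn (0.981) and Nfya (0.981), and for Pgf Depp1 (0.973), Mex3d (0.973) and Mat2a (0.970). The highest values of the genes that did not pass with ligand were lower, from 0.797 for Nrp1 and B130055M24Rik to 0.908 for Flt1 and Ackr2, with Flt4 and Plcl2 at 0.861, Nrp2 and Tusc3 at 0.835 and Vegfc and Mrps6 at 0.866.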

How the data were processed

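RNA of MLECs was sequenced as stranded poly(A) libraries. Per the submitters' processing notes the tools were HISAT2 2.0.5, featureCounts 1.5.0-p3 and DESeq2 1.26.0, with GRCm39; the strand setting and annotation release were not given in the sources used here. The authors deposited raw counts per gene, which were used as deposited; 0 count columns were left out. Libraries were grouped by their labels, and no pair of libraries of 1 group agreed within sampling noise (reduced chi-square 10.9 to 72.0 over 24 pairs). All genes that passed filterByExpr (count minimum 10, total minimum 15) were fitted in all 16 libraries together with edgeR 4.0.16 (TMM, quasi-likelihood test) in R 4.3.3, with isolation as a block, 5 comparisons and Benjamini-Hochberg adjustment over all genes (threshold 0.05). Log2 CPM of single isolations used a prior count of 2.

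The library names tie replicate numbers to isolations, as the study's methods do. Deviations from the group means correlated at 0.757 on average between libraries of the same number (lowest 0.670, 24 pairs) and at -0.251 between those of different numbers (72 pairs). Subtracting the group means itself pushes the second value below 0, so it is no separate evidence of the pairing. The script was tested on simulated data for the ligand comparison in Ctrl cells: 169 of 200 changed genes (84.5%) were recovered among 15550 genes, with 12 unchanged genes called. Totals of 14869115 to 17242117 counts limit the precision of low genes, such as Vegfc with 82 counts in its lowest library.

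Alternatives were no block, DESeq2 1.42.0, RLE size factors, other filters, only the 8 libraries of a comparison, quantile normalisation with ComBat (sva 3.50.0) and DESeq2, and leaving out each isolation. Named genes were the 8 genes, Eng, Vegfb and Vegfd, and from each other list up to 3 in each direction with the largest change among those called and changed alike in 4 of 4 isolations, for ligand and genotype comparisons. The 8 genes and the lists had been chosen with earlier results of these data known. Promoter windows were read from the GRCm39 genome at GENCODE start sites. No protein sequences were used here. A gene that the rule names is not reported here.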

Additional observations from a re-analysis of the deposited data

How the results depend on the processing

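The ligand calls of Kdr and Pgf held under 10 of 11 alternatives in Ctrl and in KO cells and that of Vegfa under 11 of 11. The exception was the fit with no replicate block, in which 1 of the 8 genes, Vegfa, passed in each, and all genes called numbered 167 in Ctrl cells and 91 in KO cells with ligand, 1 for KO against Ctrl in PBS and 1 with ligand. The main counts were 1521, 878, 3 and 40. For KO against Ctrl, DESeq2 called 7 genes in PBS and 141 with ligand, no filter on low counts 204 and 517 (2 of them among the 8, Vegfa and Kdr), quantile normalisation with ComBat and DESeq2 57 and 347 (1 of the 8, Vegfa), and the 8 libraries alone 1 in PBS. The difference of responses had 52 calls with no filter and 11 with quantile normalisation, ComBat and DESeq2. Leaving out 1 isolation gave 1058 to 1392 calls in Ctrl and 573 to 745 in KO cells, 1 to 69 in PBS (69 without isolation 4) and 6 to 175 with ligand between genotypes (175 without isolation 4). The cause was not tested. None of the called values of the 8 genes turned.

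Log2 differences near 0 that were not called turned sign. For KO against Ctrl in PBS, Flt1 was 0.0012 with DESeq2, 0.00049 with RLE size factors and 0.0059 with quantile normalisation, ComBat and DESeq2, and Vegfc was 0.0025 and 0.031 with the first and the last of these. Leaving out 1 isolation, Flt1 ranged from -0.068 to 0.092 and Vegfc from -0.064 to 0.067 in PBS, and with ligand Flt1 from -0.11 to 0.031 and Nrp2 from -0.072 to 0.032. In ligand against PBS, Nrp2 ranged from -0.038 to 0.053 and Vegfc from -0.085 to 0.051 in Ctrl cells, and Nrp2 from -0.0063 to 0.059, Nrp1 from -0.061 to 0.0092 and Vegfd from -0.082 to 0.071 in KO cells. The difference of responses ranged from -0.0998 to 0.0029 for Pgf, from -0.032 to 0.059 for Flt4 and from -0.059 to 0.075 for Nrp2. Such differences were not resolved from 0.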

Other observations

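In the lung capillary list, Ednrb, the endothelin B receptor, fell with ligand in 4 of 4 isolations of each genotype, by 0.64 on the log2 scale in Ctrl cells (adjusted p = 8.61e-04, edgeR) and by 0.54 in KO cells (adjusted p = 0.00521, a call lost without isolation 1). It was the 1 gene of 6 in that list that passed in either comparison. Of 12 endothelial markers, Pecam1 rose in Ctrl cells by 0.11 (adjusted p = 0.0314), a call lost without isolation 1, 3 or 4. In KO cells 0 of the 12 passed by edgeR or DESeq2. There 2 had an unadjusted p under 0.05, beside 2215 of all 15693 tested genes.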
